A study of Mus musculus with 60 samples.

Results

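Peaks of the histone marks H4K8ac and H3K27me3 were examined at the genes of the fibroblast growth factor (FGF), vascular endothelial growth factor (VEGF), platelet-derived growth factor (PDGF) and insulin-like growth factor (IGF) systems in mouse hippocampal neurons. The genes were chosen by symbol, as every Fgf followed by a number together with 21 named ligands, receptors and binding proteins. Of 43 annotated genes that fit these names, 38 had at least 1 peak assigned to them, among 16994 genes with a symbol in any of the 12 peak lists. These 38 were 17 FGFs and the 21 named genes, and they held 697 of the 255621 peaks assigned to a gene with a symbol. Fgf2, Fgf11, Fgf16, Fgf21 and Fgf22 had no assigned peak in any list.

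The study asked how early-life exercise (ELE) changes the chromatin of hippocampal neurons. Male Emx1-NuTRAP mice carried Emx1-IRES-Cre and the NuTRAP reporter, which tags the nuclei and ribosomes of cells of the Emx1 lineage, so both the exercised and the sedentary groups carried both alleles. The tagged nuclei were captured on streptavidin beads (INTACT), a step meant to remove nuclei outside that lineage, among them those of most interneurons, endothelial cells and pericytes. Wheels were open to the ELE mice between postnatal days 21 and 41, and sedentary littermates were housed without one. Nuclei came either from the SIT protocol, in which chromatin and translating mRNA are drawn from one preparation of both hippocampi of a mouse (4 samples for each mark and condition), or from separate isolations of the left or of the right hippocampus (3 samples each). Each of these 3 arms yielded 1 pooled list of peaks for each mark and condition, so no spread between mice can be given. The 12 lists belong to groups with 40 samples. Each nuclei preparation was divided between the antibodies, so both marks of an arm and condition come from the same preparations, apart from dropped libraries. The authors dropped exercised H4K8ac libraries, 1 of SIT and 3 of the separate isolations, for a high false discovery rate. The exercised SIT H4K8ac list and at least 1 exercised separate H4K8ac list therefore rest on fewer samples than were profiled. The study also describes removing outlying mice of both conditions in its sequencing. Its figure of SIT peaks of both marks gives fewer mice than the 4 samples profiled, with fewer sedentary than exercised. Whether each deposited list rests on those mice is not stated. Another 20 samples were IgG controls, and no list of theirs was analysed here.

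The lists held 12168 to 38136 peaks for H4K8ac and 9899 to 25693 for H3K27me3, and no signal or read count. The study gives a minimum depth for its libraries, but the depth behind each list is unknown. A gene without a peak is therefore not shown to lack the mark. The exercised list was the longer of the pair in the SIT arm for both marks and in the left arm for H3K27me3, and the shorter of the pair in the other comparisons. Emx1 is active in the cortical lineage that gives excitatory neurons and also some glia. Among marker genes, H4K8ac peaks were assigned in some list to 9 of 10 excitatory neuron markers and 3 of 6 interneuron markers, and H3K27me3 peaks to 2 of 10 and 6 of 6. In all 6 lists, H3K27me3 covered a start site of 4 of the 6 interneuron markers (Gad2, Slc32a1, Sst and Pvalb) and of 0 of the 10 excitatory markers. The share over protein-coding genes was 4.72%. The excitatory marker Prox1 had a start site under H3K27me3 in 5 lists, and Prox1 and Thy1 were in all 6 H3K27me3 lists. Astrocyte markers held H4K8ac at 5 of 5 and H3K27me3 at 4 of 5 in some list, and microglia markers at 3 of 5 and 2 of 5. Over all genes with a peak, H4K8ac was in some list at 79.9% and H3K27me3 at 43.5%.

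FGFs are mostly secreted ligands that act through FGF receptors in embryonic patterning and tissue repair, while the FGF11 to FGF14 group stays inside the cell and binds voltage-gated sodium channels. VEGF and its receptors guide blood and lymph vessels, PDGF signals to pericytes and to precursors of oligodendrocytes, and IGF1 acts through its receptor on growth and neuronal survival, with binding proteins that hold it in the extracellular space. H3K27me3 is laid down by Polycomb enzymes and is known from silent developmental genes. H4K8ac, an acetylation of the tail of histone H4, is known from active promoters and enhancers.

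H3K27me3 was assigned in some list to 28 of the 38 genes, against 43.5% of all genes with a peak, and H4K8ac to 29, against 79.9%. These split into 9 genes holding H3K27me3 alone, 10 holding H4K8ac alone and 19 holding both. Over all genes with a peak, 20.1% held H3K27me3 alone, 56.5% H4K8ac alone and 23.5% both. In all 6 lists of its mark, H3K27me3 was listed at 16 of the 38 genes against 16.5% of all genes, and at 9 against 6.57% when at least 2 peaks were asked for. H4K8ac was listed at 7 against 19.3%, and at 3 against 12.2% when lists were cut to equal numbers of peaks or 8.57% when at least 2 peaks were asked for. H3K27me3 in all 6 lists with H4K8ac in 0 was found at 8 genes (Fgf3, Fgf4, Fgf6, Flt1, Flt4, Pdgfd, Pdgfra and Igf1), against 7.85%, and the reverse at 4 (Fgf1, Fgf14, Fgfr1 and Pdgfc), against 13.7%. The set therefore held a larger count of genes with constant H3K27me3 than the background share gives, and its constant H4K8ac count was near or under the background share. The 28 and 29 genes include genes that enter through peaks far from the gene, which are set apart in what follows.

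At start sites, defined as the 5′ ends of annotated transcripts, the marks were nearly separate. An H3K27me3 peak covered a start site in all 6 lists at 11 genes (Fgf3, Fgf4, Fgf8, Fgf15, Fgf17, Fgf20, Flt1, Flt4, Pdgfd, Pdgfra and Igf1), a call met by 4.72% of protein-coding genes. The shares at start sites are over all protein-coding genes, with or without a peak, whereas the 38 genes all had a peak. In at least 1 list it did so at 19 genes, against 13.1%. H4K8ac covered a start site in all 6 lists at 0 of the 38 genes, against 1.46%, and in at least 1 list at 9 (Fgf5, Fgf9, Fgf14, Fgf20, Vegfb, Vegfc, Pdgfa, Pdgfc and Igfbp4), against 29.1%. Fgf20 was the gene in both sets, through different start sites. None of the 5 genes without an assigned peak had a start site inside a peak of either mark.

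**Figure D1:**
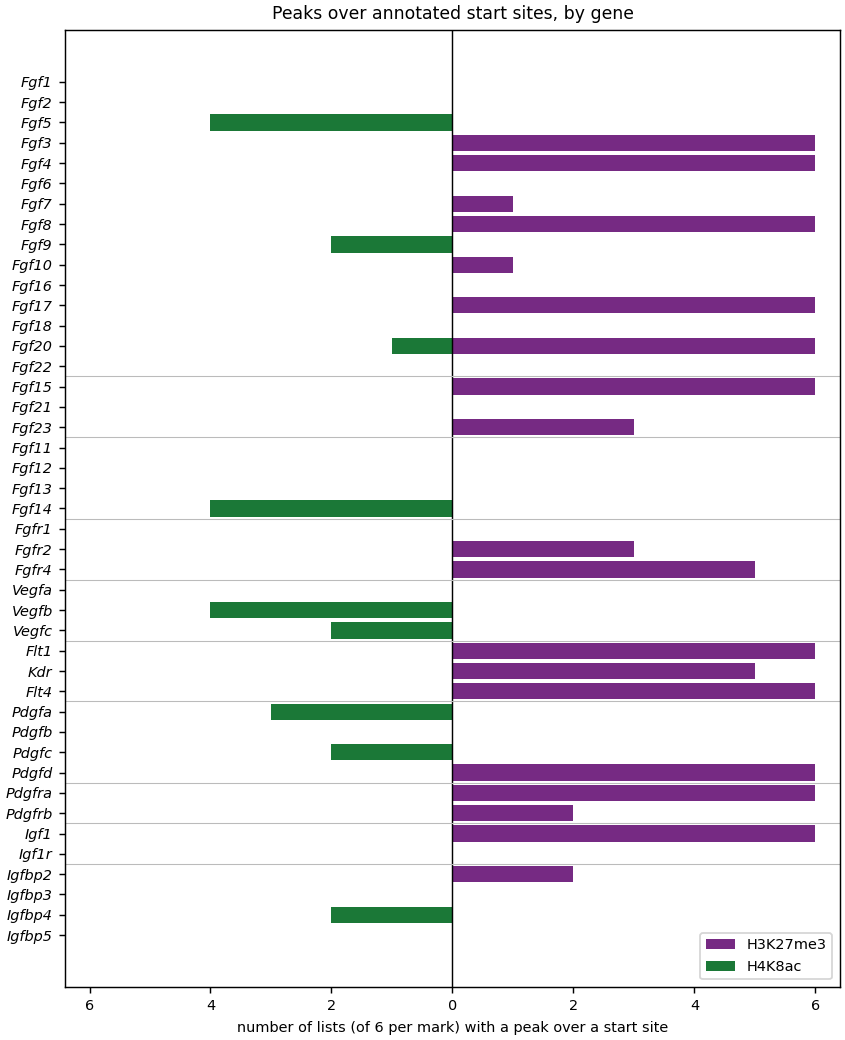
Number of lists, of 6 for each mark, in which a peak covered an annotated start site of each of the 43 genes, with H3K27me3 bars to the right, H4K8ac bars to the left and grey lines between gene groups. H3K27me3 reached 6 lists at 11 genes, and H4K8ac reached at most 4, at Fgf5, Fgf14 and Vegfb.

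The promoters of 6 genes show the sequences beneath the 2 patterns. They are printed because the first 4 genes had a start site under H3K27me3 in all 6 lists and the last 2 had one under H4K8ac in some lists and H3K27me3 in 0. Each is the 250 bases before a RefSeq transcript start, read 5′ to 3′ along the gene (build GRCm38.p6), with CG dinucleotides, the site of vertebrate DNA methylation, in capitals. That transcript start is the outer end of the gene at Fgf4, Pdgfc and Vegfb, and lies 929 bp inside the annotated gene at Pdgfra, 2846 bp at Igf1 and 427 bp at Flt1. H3K27me3 peaks covered all printed bases in 6 lists at Igf1, Flt1 and Fgf4 and in 5 at Pdgfra, where the exercised right list covered 74 of them. H4K8ac peaks reached the printed bases in 2 lists at Pdgfc and in 4 at Vegfb.
Pdgfra, chr5:75152001-75152250, plus strand: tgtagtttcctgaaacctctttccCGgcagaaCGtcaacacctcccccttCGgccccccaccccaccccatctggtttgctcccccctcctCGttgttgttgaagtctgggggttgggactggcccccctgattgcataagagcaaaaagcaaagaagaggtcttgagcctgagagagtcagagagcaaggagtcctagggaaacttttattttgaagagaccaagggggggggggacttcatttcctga
Igf1, chr10:87860861-87861110, plus strand: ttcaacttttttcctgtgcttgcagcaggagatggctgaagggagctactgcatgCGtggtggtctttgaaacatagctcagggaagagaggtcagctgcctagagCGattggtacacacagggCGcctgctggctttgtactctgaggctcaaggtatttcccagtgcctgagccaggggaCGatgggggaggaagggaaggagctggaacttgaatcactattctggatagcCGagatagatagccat
Flt1, chr5:147726012-147726261, minus strand: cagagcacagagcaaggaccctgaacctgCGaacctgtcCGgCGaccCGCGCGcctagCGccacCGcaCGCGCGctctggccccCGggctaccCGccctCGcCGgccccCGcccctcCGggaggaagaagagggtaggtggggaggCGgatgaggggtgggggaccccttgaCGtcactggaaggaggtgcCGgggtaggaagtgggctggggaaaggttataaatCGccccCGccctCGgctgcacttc
Fgf4, chr7:144861136-144861385, plus strand: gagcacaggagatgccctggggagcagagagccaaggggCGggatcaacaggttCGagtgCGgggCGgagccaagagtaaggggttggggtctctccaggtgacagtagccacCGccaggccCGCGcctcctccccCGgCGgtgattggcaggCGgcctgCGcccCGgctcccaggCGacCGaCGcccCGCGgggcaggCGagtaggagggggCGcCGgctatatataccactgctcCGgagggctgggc
Pdgfc, chr3:81036166-81036415, plus strand: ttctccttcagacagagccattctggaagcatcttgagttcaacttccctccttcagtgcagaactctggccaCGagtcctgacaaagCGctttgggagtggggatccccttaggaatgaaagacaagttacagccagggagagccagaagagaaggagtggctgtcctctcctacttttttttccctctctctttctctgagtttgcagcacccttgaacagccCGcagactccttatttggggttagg
Vegfb, chr19:6987652-6987901, minus strand: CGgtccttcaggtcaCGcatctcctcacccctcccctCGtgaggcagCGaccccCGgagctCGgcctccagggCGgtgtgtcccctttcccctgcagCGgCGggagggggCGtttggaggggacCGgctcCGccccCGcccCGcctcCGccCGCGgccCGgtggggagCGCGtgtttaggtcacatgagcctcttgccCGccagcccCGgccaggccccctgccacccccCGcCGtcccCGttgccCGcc

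Both CG-rich and CG-poor promoters lay under H3K27me3. The printed stretches held 4 CG dinucleotides at Pdgfra, 5 at Igf1, 23 at Flt1 and 21 at Fgf4, and under H4K8ac they held 3 at Pdgfc and 26 at Vegfb. RefSeq promoters of 300 bases matched 30 of the 38 genes by symbol, with a median of 17.0 CG dinucleotides against 7 over 27025 genes. Among the 7 matched genes with H3K27me3 at a start site in all 6 lists the count ran from 5 to 29 with a median of 14.0, and among the 8 with H4K8ac at a start site and H3K27me3 in 0 lists it ran from 8 to 35 with a median of 25.5, so the ranges overlapped. The GC box GGGCGG, searched on both strands as GGGCGG and CCGCCC, stood in 17 of the 30 promoters and in 35.9% of all. It stood in 3 of the 7 and in 5 of the 8. The promoters of Fgf1, Fgf8, Fgf15, Fgf17, Fgf20, Fgfr1, Pdgfb and Pdgfrb were not matched.

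Of 15 annotated secreted FGFs 12 had peaks, 10 had H3K27me3, against 43.5% of all genes with a peak, and 7 had it in all 6 lists, against 16.5%: Fgf3, Fgf4, Fgf6, Fgf8, Fgf17, Fgf18 and Fgf20. Fgf20, a ligand of inner ear and brain development, had the largest summed H3K27me3 width of the 38 genes. It measured 76046, 54647 and 30866 bp in the exercised SIT, left and right lists and 39562, 41197 and 61347 bp in the sedentary ones. The exercised value was the higher in the SIT and left arms and the lower in the right arm, so the conditions overlapped. A region of up to 24389 bp over the Fgf20 start (chr8:40272388-40296776) and one of 36450 bp downstream of it (chr8:40208987-40245436) each appeared in all 6 lists.

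Fgf3, Fgf4 and Fgf15 lie side by side on chromosome 7, and each start site was under H3K27me3 in all 6 lists. Fgf3 and Fgf4 act in the embryo, and Fgf15 is a gut hormone that limits bile acid synthesis. The Fgf4 region (chr7:144858711-144868572) was held by peaks of 8634 to 9357 bp. The Fgf3 region over the start (chr7:144831943-144844601) was held by peaks of 2331 to 12024 bp and the Fgf15 region (chr7:144893960-144903283) by peaks of 4556 to 9324 bp. Neighbouring genes under adjacent peaks are not independent examples of the mark. Summed H3K27me3 width at Fgf15 was 10665, 9324 and 4556 bp after exercise and 8902, 7802 and 11612 bp in sedentary mice. The arms stand in the order SIT, left and right here and in the values that follow, and the largest and the smallest of these 6 values were those of the right arm.

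Fgf8, which patterns the midbrain and forebrain, had a single H3K27me3 peak of 11992 to 13269 bp in 5 lists and 2 peaks of 6722 bp in all in the exercised right list. Fgf17 belongs to the same subfamily and had 1 peak in each list, 1938 to 4278 bp wide, over its start. Fgf6, a ligand of skeletal muscle, was covered inside the gene rather than at its start, and the nearest edge of its region (chr6:127017358-127029501) lay 1772 bp from the assigned start. Fgf18 was listed in all 6 lists through peaks at least 21088 bp from its start. Its most frequent regions, each in 4 lists, lay inside the gene 21088 bp from the start, annotated as 5′ UTR, and past its end 43373 bp from the start, and the first was the peak by which the sedentary left list held the gene. Fgf18 summed to 22598, 17320 and 2602 bp after exercise and 3737, 2614 and 13334 bp in sedentary mice. The exercised value was the higher in SIT and the left arm and the lower in the right arm.

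The other secreted FGFs were less regular. Fgf10, a ligand of lung and limb budding, held H3K27me3 in 5 lists, in 4 of them in a region around the gene's start (chr13:118711717-118716715), and a peak covered that start in 1 list. In the exercised SIT list its peaks lay upstream of the gene, at chr13:118668191-118671073, annotated as a promoter, and 171103 bp downstream of the start. Fgf7, known for its action on epithelial cells, held it near its start in 3 lists, and Fgf9 in 5 lists with 0 of them at its promoter. The Fgf9 peaks were spread over a stretch from 31394 bp upstream to 467516 bp downstream of its start, which makes the gene name only that of the nearest start. Summed H3K27me3 width at Fgf9 was 31318, 9388 and 4870 bp after exercise and 0, 8610 and 12147 bp in sedentary mice, and at Fgf10 5474, 8884 and 1422 bp after exercise and 0, 3215 and 9241 bp in sedentary mice. At both genes the exercised SIT list held the mark and the sedentary SIT list held none, while the right arm had the larger value in sedentary mice.

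H4K8ac at secreted FGFs was narrower and less constant. Fgf1, a ligand that binds every FGF receptor, was listed in all 6 H4K8ac lists and in 0 H3K27me3 lists, yet no region of its 6 occurred in more than 3 lists. Its summed width was 7342, 1389 and 1909 bp in the exercised SIT, left and right lists and 1918, 1109 and 5022 bp in the sedentary ones, so the conditions overlapped. Fgf5, which ends the growth phase of hair, had an H4K8ac peak of 1806 to 2408 bp over its start (chr5:98253403-98256524) in 4 lists, both conditions included, and H3K27me3 in 0. H4K8ac at Fgf7 came to 4641, 1391 and 0 bp after exercise and 2282, 1386 and 0 bp in sedentary mice, mostly in introns, and the right arm held none. H4K8ac at Fgf8 came to 1799, 0 and 0 bp after exercise and 1741, 1001 and 1962 bp in sedentary mice, from peaks at least 14340 bp from its H3K27me3. H4K8ac at Fgf9, over its start or at its 3′ end, came to 2984, 0 and 0 bp after exercise and 0, 3526 and 1815 bp in sedentary mice. At Fgf8 and Fgf9 the separate arms held the mark in the sedentary lists alone. Fgf17, Fgf18 and Fgf20 each had 1 H4K8ac peak, in the exercised SIT list, of 1024, 1906 and 2004 bp, and Fgf15 had 1, of 1980 bp, in the sedentary right list.

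The endocrine FGF23, a regulator of phosphate made in bone, carried both marks in different places. H4K8ac lay at the far end of the gene in 5 lists (chr6:127079204-127081828), annotated as its 3′ UTR, and H3K27me3 lay over the start in 3 lists. H4K8ac at Fgf23 measured 1786, 0 and 1445 bp after exercise and 1703, 2453 and 1383 bp in sedentary mice. H3K27me3 at Fgf23 measured 8062, 4076 and 0 bp after exercise and 4280, 4224 and 6506 bp in sedentary mice. The exercised left list lacked the first mark and the exercised right list the second. The nearest edges of the 2 marks stood 2775 to 5836 bp apart in the 4 arm and condition pairs that held both.

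Of the 4 annotated intracellular FGFs, 3 had H4K8ac peaks (Fgf12, Fgf13 and Fgf14), a call met by 79.9% of all genes with a peak, and Fgf11 had no assigned peak. H3K27me3 was assigned to 1 of the 4, Fgf12, through distal peaks 54528 and 122533 bp downstream in the exercised SIT and left lists. Those peaks of Fgf12 were 1578 and 2869 bp wide, and its intronic H4K8ac came to 2432, 0 and 0 bp after exercise and 4586, 3383 and 1815 bp in sedentary mice. Fgf14, a partner of neuronal sodium channels, had 5 to 16 H4K8ac peaks in every list, most of them in introns of this long gene, and H3K27me3 in 0. Its summed H4K8ac width was 21797, 7623 and 10110 bp in the exercised SIT, left and right lists and 17915, 17059 and 16174 bp in the sedentary ones. The SIT arm was higher in the exercised list and both separate arms were lower. Start sites of Fgf14 were covered in the 3 exercised lists and in 1 sedentary list (left). Fgf13 had 1 H4K8ac peak, in the sedentary SIT list.

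The FGF receptors differed from one another. Fgfr1, the receptor most linked with hippocampal neurons, had 3 to 8 H4K8ac peaks in every list and H3K27me3 in 0 lists. Its summed H4K8ac width was 12926, 6992 and 6751 bp in the exercised SIT, left and right lists and 6566, 13472 and 9233 bp in the sedentary ones. A region within the gene (chr8:25532517-25539822) was present in all 6 lists, with peaks of 1342 to 4020 bp whose nearest edge lay 236 bp from an internal start site. Further regions in 5 lists each lay at a promoter (chr8:25513722-25516291), 68 bp from the assigned start, and 21267 and 71119 bp upstream.

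Fgfr2 held H3K27me3 in all 6 lists and H4K8ac in 4, and the 2 marks stood 44117 to 168247 bp apart. H3K27me3 covered a start site of Fgfr2 in 3 lists. Its constant H3K27me3 regions (chr7:130282485-130292936 and chr7:130324139-130330603) lay 16222 and 57876 bp upstream of the start, and its H4K8ac lay in intergenic sequence at least 37850 bp downstream of the assigned start. Fgfr2 summed to 20194, 17874 and 7438 bp after exercise and 11651, 9243 and 26752 bp in sedentary mice for H3K27me3. For H4K8ac it summed to 977, 0 and 0 bp after exercise and 1911, 1715 and 2986 bp in sedentary mice. The first had no common order of the conditions, and the second was the lower after exercise in each arm. Fgfr4, a receptor known from liver and muscle, held 1 H3K27me3 peak over its start in 5 lists. It was 3713, 1737 and 0 bp in the exercised SIT, left and right lists and 3750, 3330 and 3746 bp in the sedentary ones. The exercised value was the lower in 3 of 3 arms, with a difference of -37 bp in the SIT arm. Downstream of the gene, H4K8ac assigned to Fgfr4 measured 1551, 0 and 0 bp after exercise and 1012, 2099 and 0 bp in sedentary mice.

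**Figure D2:**
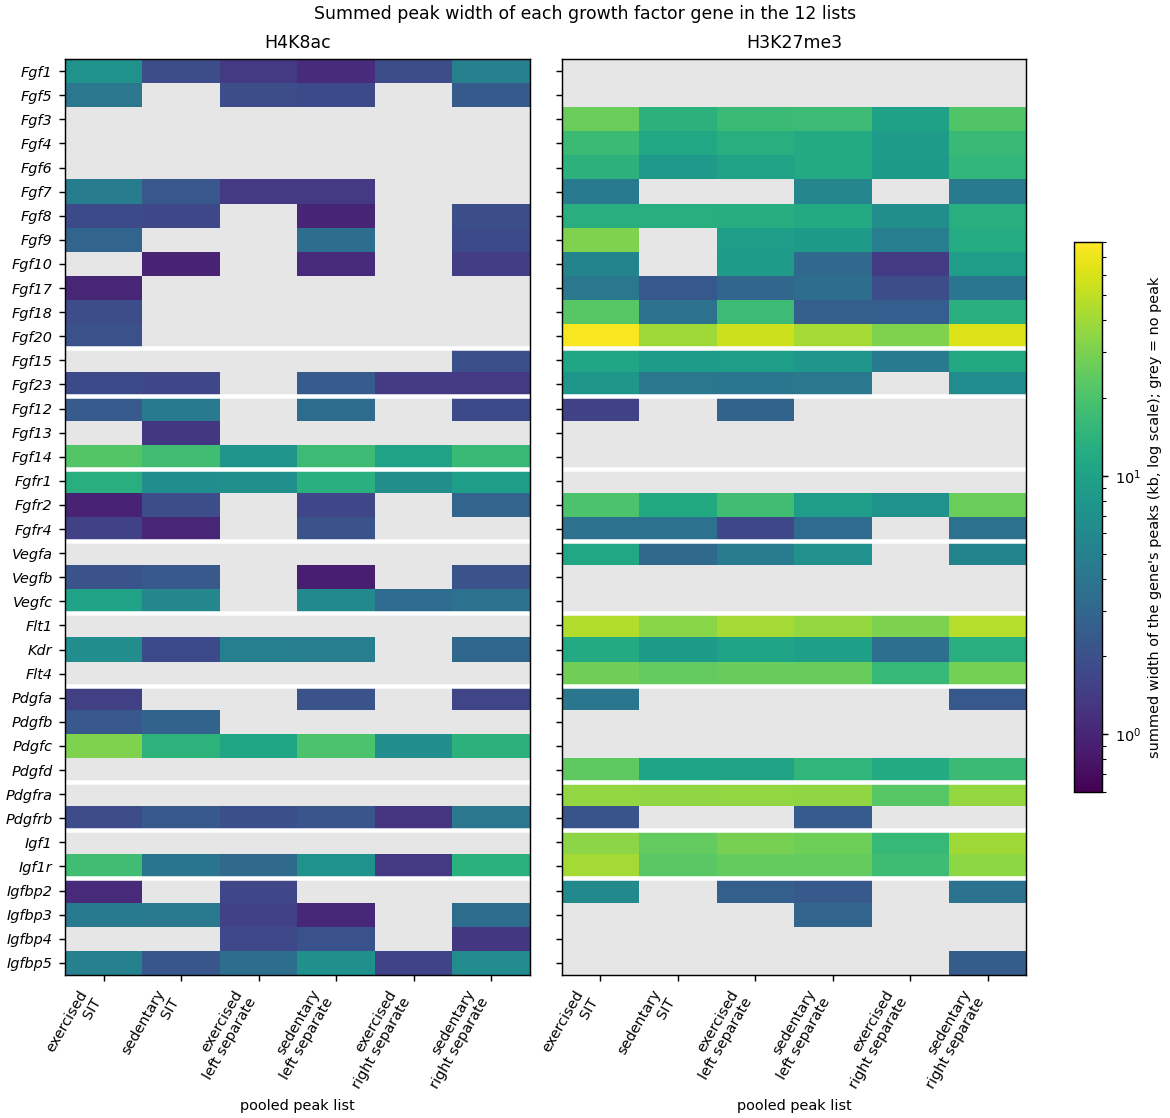
Summed width of the peaks assigned to each of the 38 genes (kb, log colour scale) in the 6 lists of each mark, with grey where a gene had no peak and white lines between gene groups. H3K27me3 columns are filled along whole rows at Fgf20, Flt1, Pdgfra, Igf1 and Igf1r, and the widest H4K8ac rows are Fgf14, Fgfr1 and Pdgfc.

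All 3 VEGF receptors had H3K27me3 in all 6 lists, against 16.5% of all genes with a peak, and 2 of the 3 ligands (Vegfb and Vegfc) had H4K8ac and no H3K27me3, against 56.5%. Flt1, which binds VEGF with high affinity on endothelium, held 4 regions of H3K27me3 in all 6 lists, the outermost with their nearest edges 31655 bp before the start and 24708 bp into the gene. Its summed H3K27me3 width was 45280, 41703 and 30327 bp in the exercised SIT, left and right lists and 33553, 37046 and 46616 bp in the sedentary ones, and the conditions overlapped. Its start lay under the widest of these regions (chr5:147712670-147733088), and H4K8ac was assigned to it in 0 lists.

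Flt4, the receptor of lymphatic endothelium, followed the same pattern, with regions over the start (chr11:49599699-49618302) and 17110 bp into the gene, both in all 6 lists, and no H4K8ac. Its summed H3K27me3 width was 27564, 25898 and 15994 bp in the exercised SIT, left and right lists and 24659, 25761 and 28598 bp in the sedentary ones. The exercised right list stood lowest, and the other 5 values spanned 24659 to 28598 bp.

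Kdr, the main signalling receptor for VEGF, carried both marks within the gene and was assigned further peaks of both past its end. H3K27me3 covered its start in 5 lists, the exception being the exercised right list, where the nearest peak lay further into the gene. An H4K8ac region 20994 bp downstream of the start (chr5:75953441-75957464) was held in 4 lists, and the marks stood at least 12718 bp apart. The gene is 46.2 kb long, and the sums that follow include peaks far past its end. Those of H3K27me3 lay 84.3 to 132.8 kb from the start and those of H4K8ac 107.1 to 153.7 kb. The 1 H4K8ac peak of the sedentary SIT list was among them. H3K27me3 at Kdr summed to 12043, 10346 and 3603 bp after exercise and 8591, 9506 and 12966 bp in sedentary mice, and the exercised right list stood lowest. The summed H4K8ac width of Kdr was 6566, 4956 and 0 bp in the exercised SIT, left and right lists and 1791, 4874 and 3123 bp in the sedentary ones, with no common order of the conditions.

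Endothelial markers as a group showed both marks in these captured nuclei, although the capture selects against endothelial nuclei. H3K27me3 was assigned to 5 of 7 (2 to 5 per list), against 43.5% of all genes with a peak. H4K8ac was assigned to 4 of 7 (2 to 4 per list), against 79.9%. Pecam1 and Emcn were in all 6 H4K8ac lists, against 19.3%. Cldn5 was under H3K27me3 at its start in all 6, against 4.72% of protein-coding genes. Their part in the peaks at Flt1, Kdr and Flt4 was not tested. In pooled nuclei, a mark in few nuclei and a weak mark in many cannot be told apart.

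Vegfa, the main angiogenic ligand, had H3K27me3 in 5 lists and H4K8ac in 0, and the H3K27me3 lay away from the gene. Its most frequent region (chr17:46061224-46066706), in 5 lists, stood 28855 bp upstream of the start, and no start site of Vegfa was covered by either mark. Vegfb, a ligand of Flt1, had 1 H4K8ac peak over its start in 4 lists. It measured 2087, 0 and 0 bp in the exercised SIT, left and right lists and 2374, 912 and 2093 bp in the sedentary ones, and the exercised value was the lower in each arm. Vegfc, the ligand of Flt4, had H4K8ac in 5 lists, most often in an intron 21312 bp from the start (5 lists), and over a start site in 2 sedentary lists.

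**Figure D3:**
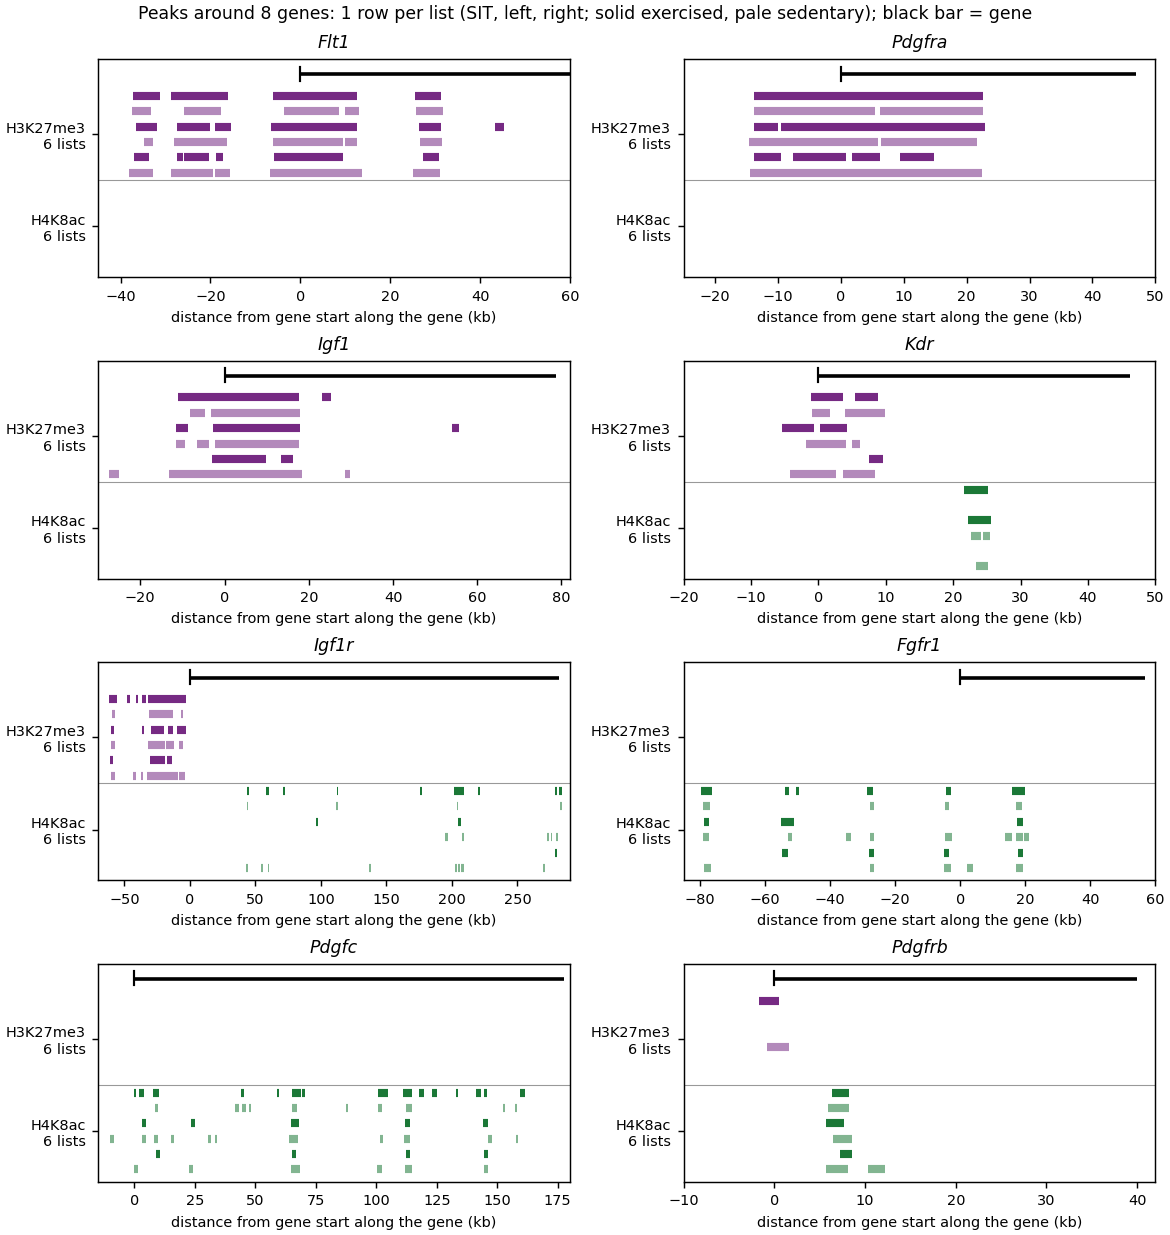
Peaks assigned to 8 genes, placed by their distance from the RefSeq gene start along the direction of the gene (kb), 1 row per list in the order SIT, left and right, with solid exercised and pale sedentary bars and a black bar for the gene. H3K27me3 (purple) spans the starts of Flt1, Pdgfra and Igf1 and stops before Igf1r, while H4K8ac (green) recurs inside Fgfr1, Pdgfc and Pdgfrb. More distant peaks lie outside the plotted windows.

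Among PDGF genes, Pdgfra and Pdgfd held H3K27me3 and Pdgfb and Pdgfc H4K8ac. Pdgfra, the receptor that marks precursors of oligodendrocytes, held the widest merged region of either mark, 37412 bp (chr5:75136783-75174194), and H4K8ac in 0 lists. Its summed H3K27me3 width was 36491, 36209 and 22531 bp in the exercised SIT, left and right lists and 35728, 35745 and 36870 bp in the sedentary ones. The exercised right list, the shortest H3K27me3 list, broke the region into 4 peaks, and the other 5 lists lay within 35728 to 36870 bp.

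Pdgfrb, the receptor of pericytes, was marked unlike Pdgfra. It held an H4K8ac region within an intron 5671 bp from its start (chr18:61050871-61053730) in all 6 lists. The summed H4K8ac width was 1872, 1985 and 1260 bp in the exercised SIT, left and right lists and 2361, 2186 and 4206 bp in the sedentary ones, and the exercised value was the lower in 3 of 3 arms. H3K27me3 covered its start in 2 lists, exercised SIT and sedentary left. Those peaks were 2150 and 2479 bp wide. Among 5 pericyte markers, Rgs5 and Cspg4 were in all 6 H4K8ac lists, while Kcnj8, Abcc9 and Anpep were in all 6 H3K27me3 lists and Cspg4 in 4. Over all genes with a peak, 19.3% were in all 6 H4K8ac lists and 16.5% in all 6 H3K27me3 lists. The capture selects against pericyte nuclei too, and their part in the Pdgfrb peaks was not tested.

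Pdgfc, a ligand of Pdgfra, had the largest summed H4K8ac width of the 38 genes, with 4 to 15 peaks in each list and H3K27me3 in 0. The summed width was 31338, 10676 and 6640 bp in the exercised SIT, left and right lists and 14074, 19823 and 13881 bp in the sedentary ones. The order of the conditions followed that of the list lengths in each arm. Intron regions of Pdgfc 62674 bp (chr3:81100098-81105099) and 110065 bp (chr3:81147489-81151315) from its start were present in all 6 lists. Pdgfd, whose product also signals through PDGF receptors, held H3K27me3 over its start (chr9:6165245-6172464) and 48696 bp upstream in all 6 lists. Pdgfa had H4K8ac over a start site in 3 lists and Pdgfb had it over or near one in the 2 SIT lists. H4K8ac at Pdgfa measured 1503, 0 and 0 bp after exercise and 0, 2084 and 1667 bp in sedentary mice, and a distal H3K27me3 peak 58939 bp downstream measured 4123, 0 and 0 bp after exercise and 0, 0 and 2325 bp in sedentary mice. In SIT the exercised list alone held either mark at Pdgfa, and in the right arm the sedentary list alone held them.

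In the IGF system the ligand and its receptor were marked in different ways. Igf1 lay under an H3K27me3 region of up to 31722 bp (chr10:87845007-87876728) that covered start sites in all 6 lists, and H4K8ac was assigned to it in 0 lists. Its summed H3K27me3 width was 34259, 29225 and 15767 bp in the exercised SIT, left and right lists and 24477, 27332 and 40121 bp in the sedentary ones, with overlap of the conditions. Interneurons, which the capture selects against, are a known source of IGF1 in the hippocampus. H3K27me3 was also at a start site in all 6 lists at 4 of the 6 markers of those cells, against 4.72% of protein-coding genes. Their part in the Igf1 peaks was not tested.

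Igf1r, the receptor, was listed in all 6 lists of both marks, which no other gene of the 38 was. Its H3K27me3 lay upstream, in a region of 29946 bp (chr7:67919628-67949573) whose nearest edge was 3254 bp before the start and in another 56424 bp upstream, both in all 6 lists. Its H4K8ac lay inside the gene or just past its end, in 1 to 11 peaks per list, and the nearest edges of the 2 marks were 46058 to 292303 bp apart. No single H4K8ac region of Igf1r recurred in more than 4 lists. H3K27me3 at Igf1r summed to 41060, 25081 and 17497 bp after exercise and 22670, 25255 and 34797 bp in sedentary mice. H4K8ac at Igf1r summed to 17974, 3246 and 1374 bp after exercise and 4038, 7376 and 13597 bp in sedentary mice. Both marks had the larger value after exercise in SIT and the smaller one in the right arm. The start of the gene, whose 300-base promoter held 48 CG dinucleotides, more than 98.8% of promoters, was covered by neither mark in any list. In 1 list, the sedentary left one, an H4K8ac peak (chr7:68147194-68149045) was annotated as lying over an internal start. That start is not among the start sites counted above, which come from another annotation.

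All 4 IGF binding proteins had H4K8ac peaks, against 79.9% of all genes with a peak, and 3 had H3K27me3 as well, against 43.5% with that mark. Igfbp5 had H4K8ac near its promoter in all 6 lists, with a summed width of 5149, 3496 and 1619 bp in the exercised SIT, left and right lists and 2228, 7044 and 6349 bp in the sedentary ones. The SIT arm and the separate arms differed in order. Igfbp4 had H4K8ac over or near a start site in 3 lists, both left lists and the sedentary right list. Igfbp3 had it in 5 lists, most often upstream (chr11:7221592-7227577, 4 lists). Igfbp3 summed to 4483, 1567 and 0 bp after exercise and 4341, 1037 and 3396 bp in sedentary mice for H4K8ac, and its 1 H3K27me3 peak, of 2973 bp, lay 208702 bp upstream in the sedentary left list. Igfbp5 likewise had 1 distal H3K27me3 peak, of 2537 bp, in the sedentary right list. Igfbp2, the neighbour of Igfbp5 on chromosome 1, held H3K27me3 at its promoter in 4 lists. The H3K27me3 widths at Igfbp2 were 6099, 2653 and 0 bp after exercise and 0, 2375 and 3838 bp in sedentary mice. The H4K8ac peak assigned to Igfbp2 in the exercised SIT and left lists (chr1:72857933-72859632) overlapped the 3′ end of Igfbp5 (chr1:72858065-72874865), so its assigned name and its place differ. The width of that peak was 1093 bp in SIT and 1700 bp in the left arm.

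Both marks were listed at the same gene within an arm and condition for 19 of the 38, against 21.3% of all genes. Of the genes with either mark in the lists of an arm and condition, those with both were 15 in the exercised SIT lists, or 41.7% against 19.9% over all genes, and 6 in the sedentary SIT lists, or 18.2% against 11.7%. They were 3 in the exercised left lists (9.09% against 9.91%) and 11 in the sedentary left lists (30.6% against 14.2%). In the right arm they were 1 in the exercised lists (3.85% against 8.94%) and 10 in the sedentary lists (27.8% against 16.3%). The share was thus above that of all genes in both SIT pairs and in the sedentary left and right pairs, and below it in the exercised left and right pairs. The peaks themselves were apart. Over the 46 cases the nearest edges were a median of 16640.5 bp apart, and 34 exceeded 10 kb. One H4K8ac peak of 315 overlapped an H3K27me3 peak of the same arm and condition, 68943 bp upstream of Igfbp5 in the sedentary right lists, against 0.378% of all H4K8ac peaks. The count of 19 fell to 8 with lists cut to equal numbers of their widest peaks, against 9.66% of all genes, to 9 without distal intergenic peaks, against 12.2%, and to 2 with promoter peaks alone, against 3.90%.

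By annotation, 29.6% of the 382 H3K27me3 peaks at these genes were at promoters, within 3 kb of a start, against 20.3% of all H3K27me3 peaks. Of the 315 H4K8ac peaks, 55.9% were in introns, against 37.4%, and 19.0% at promoters, against 23.5%. The median peak width was 3475.5 bp for H3K27me3 and 1561 bp for H4K8ac, against 3271 and 1620 bp over all genes.

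Merging overlapping peaks of a gene across lists gave 109 H3K27me3 regions, of which 24 were found in all 6 lists, or 22.0% against 16.1% over all genes. They belonged to 15 genes, and 13 of them reached within 3 kb of a start. For H4K8ac it gave 150 regions, of which 4 were in all 6 lists, or 2.67% against 5.83%, at Fgfr1, Pdgfc and Pdgfrb. Of the H4K8ac regions, 79 were in a single list. Without the left separate arm 9 H4K8ac regions were common to the remaining lists, and without the right separate arm 7.

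**Figure D4:**
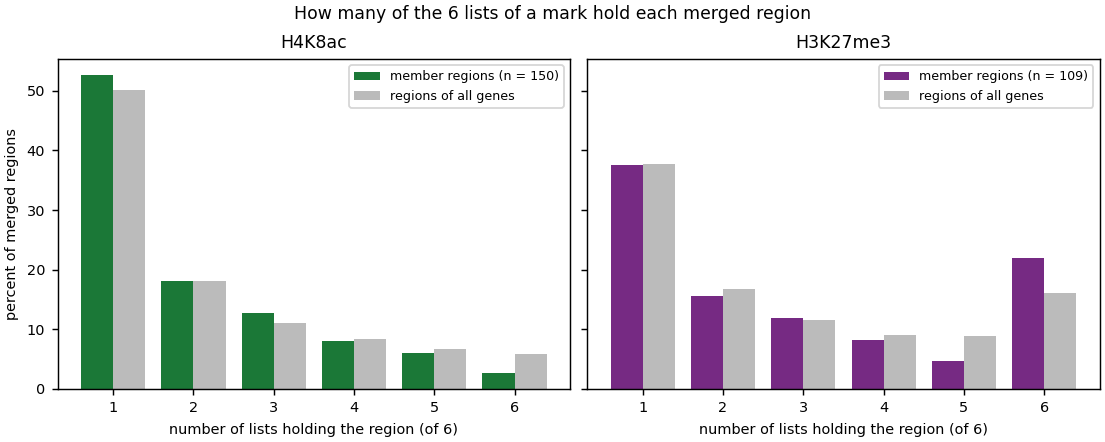
Percent of merged regions held by 1 to 6 of the lists of each mark, for the regions of the 38 genes (coloured) and of all genes (grey). At 6 lists the coloured H3K27me3 bar stands at 22.0% against 16.1%, and the coloured H4K8ac bar at 2.67% against 5.83%.

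The comparison of exercised with sedentary mice was made by arm. A gene is called gained where it had a peak in the exercised list alone and lost where it had one in the sedentary list alone. For H4K8ac the SIT arm gave 7 gained and 2 lost of 27 genes in either list, against 27.5% and 10.1% of all genes. The left arm gave 1 gained and 10 lost of 23, against 3.58% and 51.9%, and the right arm 0 gained and 12 lost of 21, against 9.14% and 36.7%. Exercised H4K8ac libraries were dropped, 1 of SIT and 3 of the separate isolations with the side not given, and the part of that in the lost genes was not tested. For H3K27me3 the SIT arm gave 7 gained and 0 lost of 26, against 41.4% and 1.02%. The left arm gave 1 gained and 3 lost of 26, against 18.5% and 9.13%, and the right arm 0 gained and 7 lost of 25, against 3.12% and 43.6%.

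In 5 of these 6 comparisons the growth factor genes and all genes leaned the same way as the lengths of the lists. The exception was left H3K27me3, where the exercised list was longer and more of these genes were lost than gained. With lists cut to equal numbers of their widest peaks, the left H4K8ac comparison gave 7 gained and 6 lost of 19 in place of 1 and 10, against 23.9% and 24.0% of all genes under the same cut. The right gave 1 gained and 7 lost of 16, against 25.6% and 22.1%, so these genes leaned to lost there while all genes did not.

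**Figure D5:**
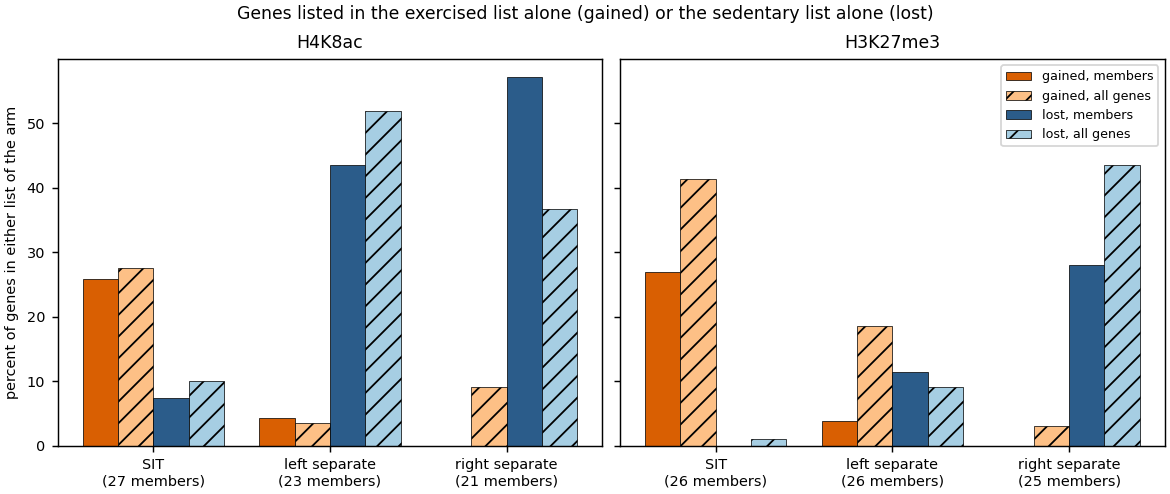
Percent of genes found in the exercised list alone (gained, orange) or the sedentary list alone (lost, blue) of each arm, for the growth factor genes (solid) and all genes (hatched), with the number of growth factor genes in either list under each arm. For H4K8ac the gained bars lead in the SIT arm and the lost bars in both separate arms, for these genes and for all genes.

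Few genes had the same call in at least 2 arms. For H4K8ac, 7 were lost in at least 2 arms (Fgf8, Fgf9, Fgf10, Fgf12, Fgfr2, Vegfb and Pdgfa), against 12.1% of all genes with a peak, and 1 was gained (Igfbp2), against 2.32%. Fgf10 was the gene lost in 3 arms, with 1 H4K8ac peak in each sedentary list (978 bp in SIT, 1074 bp in the left arm and 1451 bp in the right arm) and 0 in the exercised ones. For H3K27me3, 1 was gained in 2 arms (Fgf12, through its distal peaks), against 3.87%, and 1 was lost in 2 (Fgf7), against 1.74%. Fgf7 had H3K27me3 widths of 4441, 0 and 0 bp in the exercised SIT, left and right lists and 0, 5607 and 4589 bp in the sedentary ones, so the SIT arm went the other way. Of the 28 genes with H3K27me3, 16 were neither gained nor lost in any arm, against 38.8% of all genes with the mark, and of the 29 with H4K8ac, 9, against 28.1%.

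At 5 genes (Fgf10, Fgf12, Fgfr2, Vegfb and Pdgfrb) each of the 3 arms had the smaller summed H4K8ac width after exercise, against 5.60% of all genes with a peak, and 0 genes had the larger width in each arm, against 0.836%. With lists cut to equal numbers of their widest peaks the smaller width was found at 2 genes, against 2.58%, and the larger at 1, against 2.87%, and with promoter peaks alone or the widest 50% of each list the smaller width was found at 1, against 2.73% and 3.30%. For H3K27me3, with the lists as deposited, the smaller width came after exercise in each arm at 1 gene, Fgfr4, against 0.924%, and the larger at 0, against 0.612%. The smaller width was found at 3 genes with equal numbers of peaks, against 1.78%, at 2 with promoter peaks alone, against 1.06%, or without distal peaks, against 0.965%, and at 0 with the widest 50% of each list, against 0.636%. The larger was found at 1 with equal numbers of peaks, against 0.959%. For Fgf12 the H4K8ac differences, exercised minus sedentary, were -2154, -3383 and -1815 bp in the SIT, left and right arms. For Fgfr2 they were -934, -1715 and -2986 bp, and for Pdgfrb -489, -201 and -2946 bp. Flipping the signs of the 3 differences in every way (exact permutation, two-sided) gave p = 0.25 for each of these 6 genes, the smallest p that 3 arms allow, so no difference in width at a single gene could pass 0.05.

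Of 32 other genes of these pathways, among them adaptors, inhibitors and co-receptors, 23 had H4K8ac and 15 had H3K27me3 in some list, against 79.9% and 43.5% of all genes with a peak. Each mark was in all 6 lists at 6 of the 32, against 19.3% for H4K8ac and 16.5% for H3K27me3, and H3K27me3 covered a start site in all 6 lists at 2, against 4.72%. H4K8ac was listed in all 6 lists at Spry2 and Spred2, inhibitors of signalling by growth factor receptors, Sos1 and Irs1, which pass receptor signals on, and Nrp1 and Nrp2, co-receptors of VEGF. H3K27me3 was in all 6 lists at Fgfbp1, Spry4, Spred2, Epas1, Igfbp7 and Grb10. For H4K8ac, 4 were gained and 2 lost of 18 in either SIT list (27.5% and 10.1% over all genes), 0 and 7 of 19 in the left arm (3.58% and 51.9%) and 1 and 5 of 16 in the right arm (9.14% and 36.7%). For H3K27me3, 5 were gained and 0 lost of 14 in SIT (41.4% and 1.02%), 4 and 0 of 13 in the left arm (18.5% and 9.13%) and 0 and 5 of 13 in the right arm (3.12% and 43.6%). The larger of gained and lost was the same among these genes as among all genes in each of the 6 comparisons.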

How the data were processed

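Hippocampal nuclei of Emx1-NuTRAP mice were profiled by CUT&RUN, which cuts and sequences DNA beside an antibody-bound mark. Per the labels and the study's methods, the authors checked reads with FastQC 0.11.9, aligned them to mm10 with Bowtie2 2.4.1, called peaks with SEACR in stringent mode and assigned each peak with ChIPseeker 1.8.6 to the gene with the nearest start site, with an exception stated for peaks inside a gene, although some deposited peaks inside a gene carry a neighbour's name. Some exercised H4K8ac libraries, of SIT and of the separate isolations, were left out by the authors for a high false discovery rate, and which of them and how libraries were combined into a list are not given in the sources used here. The deposited tables hold peak positions, widths and distances, and no signal, read count or p-value, so there is no test across genes. Coordinates are printed as deposited, and 1 peak starts at 0, so starts may count from 0.

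Peaks were counted and summed by gene and list, merged across lists at an overlap of at least 1 bp (Python 3 with pandas), and compared as sets, with percentages over all genes as background. Start sites came from GENCODE M21, gene spans and promoters from RefSeq (GRCm38.p6, the same assembly as mm10). The functions were tested on simulated lists. Values given in every list are for the 5 genes of each mark with the largest summed width among those in all 6 lists, for genes with both marks in the same arm and condition or with a repeated direction, and for examples of each group, with 0 where a list has no peak. Genes and gene lists were chosen with earlier results of these data known. Each list pools mice, and the p-value of a sign-flip test measures only the spread between the 3 arms. Alternatives were promoter peaks alone, no distal peaks, wider peaks, equal list lengths, overlap in place of the assigned gene, at least 2 peaks, reciprocal overlap of 50%, and each arm left out. Counts over the oligodendrocyte lineage markers are not reported here.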

Additional observations from a re-analysis of the deposited data

Results flagged for a closer look

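Some genes had opposite calls in 2 arms, a peak in the exercised list alone in SIT and in the sedentary list alone in a separate isolation. These differences between arms were not tested, since each arm is 1 pair of pooled lists, and they have the direction of the list lengths in all but the left H3K27me3 comparison. For H3K27me3, the exercised minus sedentary summed width of Fgf7 was 10048 bp higher in SIT than in the left arm and 9030 bp higher than in the right arm. The same difference between SIT and the right arm was 9937 bp for Igfbp2 and 6448 bp for Pdgfa, and between SIT and the left arm it was 4629 bp for Pdgfrb. For H4K8ac it was 6587 bp for Fgf5 between SIT and the right arm. For Fgf9 it was 6510 bp against the left arm and 4799 bp against the right arm, and for Pdgfa 3587 and 3170 bp.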

How the results depend on the processing

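The 12 peak lists hold neither signal nor replicates, so depth could not be weighed, and list length stood in for it. No paired analysis was possible because each list pools the mice of its group and its columns carry no replicate numbers. Of 123 values recomputed under the alternatives for 21 counts, 75 stayed within 1.5 times the count as reported and 48 did not. The H3K27me3 regions common to all 6 lists stayed within it under every alternative run. For the others the cause was not tested beyond how each alternative is built.

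With lists cut to equal numbers of their widest peaks, H4K8ac gave 7 genes gained and 6 lost in the left arm and 1 and 7 in the right arm, and H3K27me3 gave 4 gained and 1 lost of 23 in SIT (655 and 540 of 4485 over all genes under the same cut) and 1 gained and 4 lost of 22 in the right arm (588 and 915 of 4421). H4K8ac was then in all 6 lists at 3 genes and both marks met at 8. Summed width was lower in the exercised list in 3 arms at 2 genes for H4K8ac and 3 for H3K27me3, and higher at 1 gene for each mark.

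Shares over all genes were not computed for the gained, lost and all-list counts in this paragraph, so these show only how far each count moved. With the widest 50% of each list, 5 genes were lost for H4K8ac in SIT and 0 gained in the left arm, and for H3K27me3 2 were gained and 1 lost in the left arm. H4K8ac was in all 6 lists at 3 genes, both marks met at 9, and width was lower in 3 arms at 1 gene for H4K8ac and 0 for H3K27me3. With promoter peaks alone, H4K8ac gave 0 gained in the left arm and 1 gained and 6 lost in the right arm, was in all 6 lists at 1 gene (Igfbp5), and met H3K27me3 at 2 genes. Width was then lower in 3 arms at 1 gene and higher at 1 for H4K8ac, and lower at 2 for H3K27me3. Without distal intergenic peaks, 0 genes were gained for H3K27me3 in the left arm, both marks met at 9, and H3K27me3 width was lower in 3 arms at 2.

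When at least 2 peaks were asked for, H4K8ac gave 3 gained and 1 lost in SIT, 0 and 3 in the left arm and 6 lost in the right arm, and H3K27me3 gave 1 lost in SIT, 2 gained in the left arm and 2 gained in the right arm. H4K8ac was in all 6 lists at 3 genes, H3K27me3 at 9, and both marks met at 4. With overlap in place of the assigned gene, 0 genes were gained for H4K8ac in the left arm and both marks met at 7. Under these 2 settings no share over all genes was computed for genes gained, lost or with both marks. Those counts show only how far each moved, not how these genes compare with others. The H4K8ac regions common to all lists numbered 9 without the left separate arm and 7 without the right separate arm.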

Other observations

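Fgf2, Fgf11 and Fgf21, of the 5 genes without an assigned peak, did lie under or near a peak named for another gene. Counting any peak over the gene or within 3 kb of a start site, Fgf2, a ligand of neural precursors, had H4K8ac in 1 list, Fgf11 had H3K27me3 in 1 list, and Fgf21, a hormone of liver, had H3K27me3 in 2 lists. Fgf16 and Fgf22 had neither mark in any list by this count.

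The 3 genes that stayed in all 6 H4K8ac lists when lists were cut to equal numbers of their widest peaks were Fgf14, Fgfr1 and Pdgfc. Under the same cut H3K27me3 stayed in all 6 lists at Fgf3, Fgf4, Fgf6, Fgf8, Fgf15, Fgf20, Fgfr2, Flt1, Kdr, Flt4, Pdgfd, Pdgfra, Igf1 and Igf1r.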
